A study of Mus musculus with 33 samples.

Results

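The 9 genes described here encode the adenosine receptors Adora1, Adora2a and Adora2b, the surface enzymes Entpd1, Entpd2 and Nt5e that form adenosine from ATP, the nucleoside transporters Slc29a1 and Slc29a2, and the adenosine kinase Adk. They were taken by symbol from a table of 21565 genes, and all 9 were found. RNA-seq libraries of the frontal cortex (FC) of adult male C57BL/6J mice were compared between control sleep (CS), sleep deprivation for 6 hr (SD) and recovery sleep (RS), in which mice slept for 2 hr after a shorter deprivation. All mice were sampled at the same time of day. Wild type (WT) mice gave 6 CS, 7 SD and 7 RS libraries. Mef2c f/f mice, in which loxP sites flank an exon of the transcription factor gene Mef2c and no Cre is present, gave 4 CS and 3 SD libraries. Mef2c-cKO mice carry the same f/f alleles with a Camk2a-Cre transgene, which is active in forebrain excitatory neurons, and gave 3 CS and 3 SD libraries. Per the study's methods some cKO mice had lost 1 Mef2c allele in other tissues as well, so the deletion was not restricted to neurons in every animal.

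Adenosine is a breakdown product of ATP that builds up outside cells during prolonged wakefulness and dampens neuronal activity, and it is a classical candidate for a sleep-promoting factor. Outside the cell, ATP and ADP are cut to AMP by ectonucleotidases such as CD39 (Entpd1), and AMP is cut to adenosine by CD73 (Nt5e). Adenosine then acts on G protein-coupled receptors, crosses the membrane through equilibrative transporters, and is removed inside cells, chiefly in astrocytes, where adenosine kinase (Adk) turns it back into AMP.

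The libraries held 18935045 to 249046089 reads. Values are given as rescaled CPM, that is CPM (reads of a gene scaled to the total of its library) divided by a scaling factor of each library, and differences are log2 differences of rescaled CPM + 0.5. A gene was called changed where the limma adjusted p did not exceed 0.05 and the log2 difference was 0.3 or more in either direction. The listed genes of WT libraries summed to 925580 to 985958 CPM and those of the 13 other libraries to 1000000, so the levels of WT and f/f mice were not tested against each other. Within a library, the level of genes in the highest GC decile minus that of genes in the lowest (log2) was -1.79 to -0.07 in WT CS, -0.01 to 0.69 in WT SD, -0.24 to 0.74 in WT RS and -0.38 to 0.40 in the other libraries. WT CS library 2 stood apart at -1.79. In Mef2c-cKO CS library 8 the summed microglia and macrophage markers were 673 rescaled CPM, against 186 and 241 in the other 2 libraries of that group. Choroid plexus markers summed to 321 rescaled CPM in cKO CS library 5 and 192 in WT CS library 1, against 5.01 to 65.7 in the other 31 libraries. Markers of excitatory neurons, the main cells of the cortex, summed to 1530 to 2358 rescaled CPM. Reads of Mef2c over the whole gene averaged 1147 ± 67.3 rescaled CPM in f/f CS (SD, n = 4) and 1431 ± 415 in cKO CS (n = 3). Since the deletion removes a single exon, gene-level values do not check it.

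In GRCm38, the genome build the reads were aligned to, the 9 genes lie apart from each other, and all are protein coding. Adora1 lies at chr1:134199223-134235431, Adora2a at chr10:75316877-75334784 and Adora2b at chr11:62248984-62266453. Entpd1 lies at chr19:40612366-40741602, Entpd2 at chr2:25395874-25401321 and Nt5e at chr9:88327197-88372092. Slc29a1 lies at chr17:45585200-45599606, Slc29a2 at chr19:5023860-5031972 and Adk at chr14:21052574-21448569. Exons of Entpd2 overlap exons of Npdc1 on the same strand, so its counts are uncertain. Exons of Adora1 and Slc29a1 overlap exons of a gene on the opposite strand (Mybph and Gm17080), and the strand setting of the counting is not given in the sources used here.

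Per kb of exon, Adora1 and Adk were the most abundant of the 9 genes in all 7 groups. In WT CS the levels per kb were 24.97 ± 3.76 rescaled CPM for Adora1 (SD, n = 6), 20.9 ± 2.14 for Adk, 5.30 ± 2.35 for Adora2a, 3.77 ± 0.21 for Entpd1 and 3.09 ± 0.97 for Slc29a1. They were 1.43 ± 0.35 for Slc29a2, 0.80 ± 0.12 for Nt5e, 0.56 ± 0.31 for Entpd2 and 0.53 ± 0.11 for Adora2b. In this order, only Adk and Adora2a had ranges over the WT CS libraries that did not overlap between neighbours. The order was the same in WT SD and WT RS except that Slc29a1 stood above Entpd1, with overlapping ranges. In WT SD the ranges of Adora1 and Adk no longer overlapped, with 23.9 ± 3.17 (n = 7) for the receptor and 14.5 ± 1.68 for the kinase. The same gap was present in f/f CS, f/f SD, cKO CS and cKO SD.

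**Figure D1:**
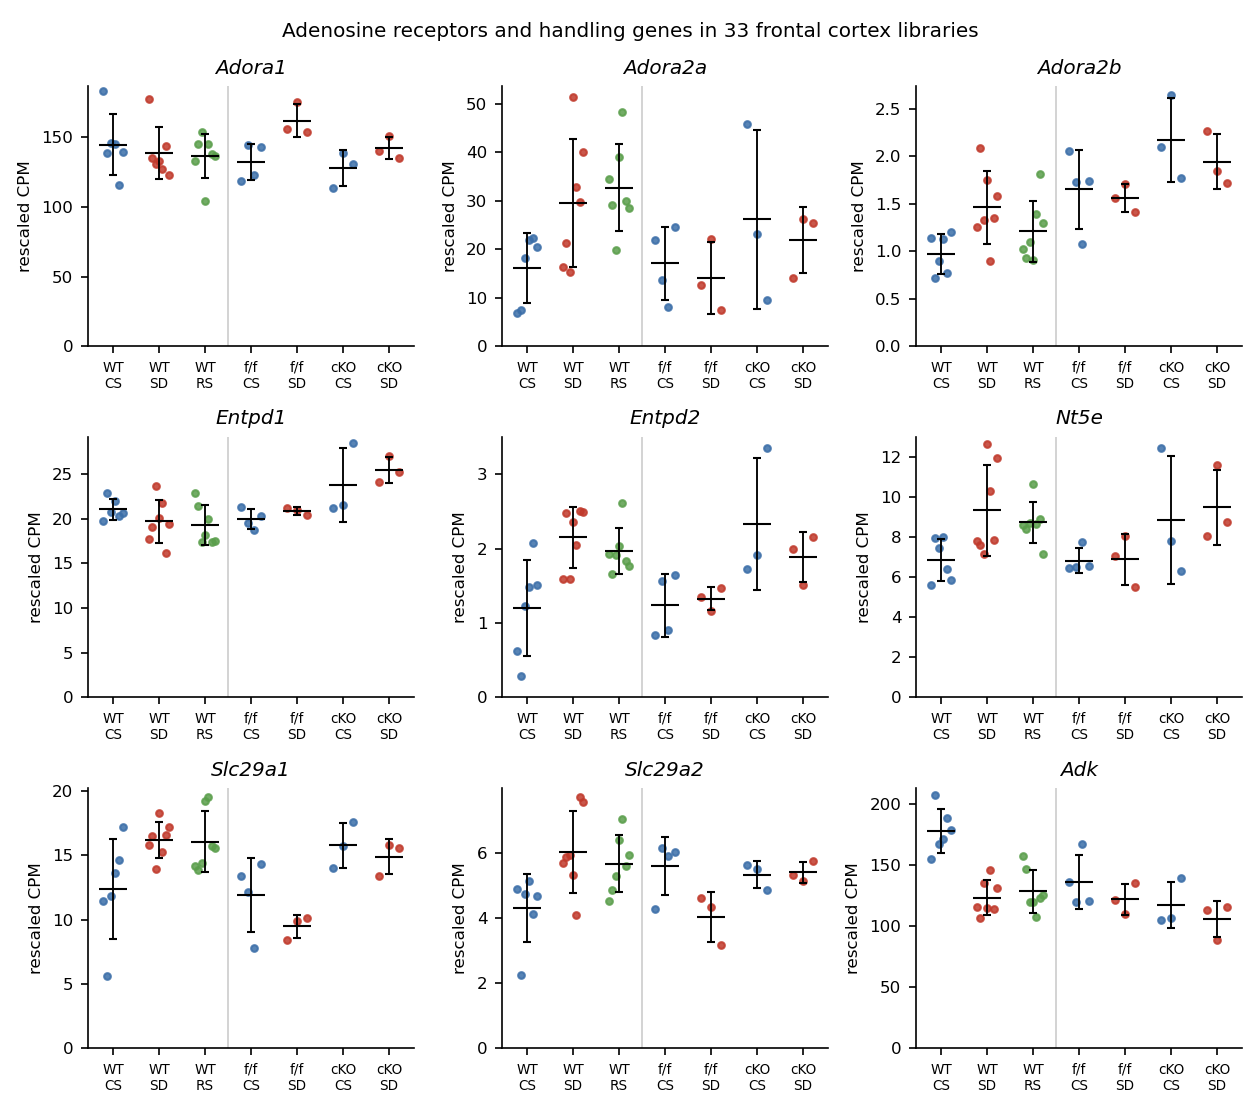
Rescaled CPM (y axis, linear, from 0) of each of the 9 genes in the 33 libraries, by genotype and sleep group (x axis). Each point is a library, and the horizontal and vertical bars are the group mean and SD. Adk is the gene whose WT CS points (155 to 207) all lie above its WT SD points (107 to 146).

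In WT mice, 5 of the 8 members tested were called changed from CS to SD, where 45.1% of all 12913 genes tested were called. Adk, which removes adenosine, fell by 30.6%, while Adora2a, Nt5e and Slc29a2 rose by 1.31 to 1.83 times. The share called higher was 24.6% of all genes and the share called lower 20.5%, so the calls among the members are to be read against a table in which close to every second gene was called. The median difference of the 8 members was 0.42 and that of all genes 0.04. Transcripts of Adora1, Adora2a, Entpd2, Slc29a1 and Slc29a2 lay at GC percentiles of 75.3 to 94.0 among annotated genes. Those of Adk, Entpd1 and Nt5e lay at 4.10 to 44.9. Differences went with GC content, as given below, and its part in the median of the members was not tested. Adora2b was not tested. Entpd2, the remaining gene past the threshold, entered the test only through the group in which it was high, so its call is a description.

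Of the receptors, Adora2a couples to stimulatory G proteins and is the receptor through which caffeine promotes wakefulness. It had 6.84 rescaled CPM in the lowest, 19.4 in the median and 22.4 in the highest WT CS library, and 15.3, 29.9 and 51.5 in WT SD. The SD values spread widely, and 2 WT CS libraries lay below 10 while 4 of 7 SD libraries lay above every CS library. The rise was 0.87 (SE 0.34, limma adjusted p = 0.0439), a fold of 1.83 with a 95% confidence interval from 1.11 to 3.03. The call was lost without any of the WT CS libraries 1, 2 and 3 or SD libraries 2, 4, 6, 8 and 9, with differences of 0.67 to 0.94 and adjusted p of 0.0512 to 0.104.

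Adora1, the inhibitory receptor with the widest expression in the cortex, had 115, 142 and 183 rescaled CPM in the lowest, median and highest WT CS library and 123, 133 and 178 in WT SD. These ranges lay almost on top of each other. The difference was -0.06 (SE 0.11, limma adjusted p = 0.663), with a 95% confidence interval from -0.28 to 0.17. Adora2b, a receptor of low affinity for adenosine, was near the limit of the filter, with 31 to 232 reads per library. It had 0.72, 1.01 and 1.20 rescaled CPM in WT CS and 0.90, 1.35 and 2.09 in WT SD. Its CPM reached 1 in 2 of 6 CS and 6 of 7 SD libraries, so it was left out of the fit. With no filter on low values it differed by 0.40 (SE 0.14, limma adjusted p = 0.0383).

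Of the enzymes that form adenosine outside cells, Nt5e carries out the last step. It had 5.61, 6.93 and 7.98 rescaled CPM in the lowest, median and highest WT CS library and 7.16, 7.86 and 12.6 in WT SD. In SD 3 libraries lay above 10, and the other 4 lay in the upper part of the CS range. The rise was 0.39 (SE 0.15, limma adjusted p = 0.0371), 1.31-fold with a 95% confidence interval from 1.06 to 1.63. The call was lost without any of the WT CS libraries 1, 5 and 6 or SD libraries 4, 6 and 9 (0.32 to 0.38, adjusted p of 0.0568 to 0.0815).

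Entpd2, which mainly turns ATP into ADP, had 0.28, 1.36 and 2.08 rescaled CPM in WT CS and 1.59, 2.35 and 2.51 in WT SD. The 2 lowest CS libraries lay far below the rest, and the groups overlapped in the highest CS library. The difference was 0.73 (SE 0.23, limma adjusted p = 0.0196), given as a description since the CS libraries alone would not have passed the filter. Npdc1, whose exons overlap those of Entpd2, averaged 44.2 rescaled CPM in WT CS and 67.9 in WT SD. Entpd1, an ectonucleotidase of microglia and blood vessels, had 19.8, 20.7 and 22.9 rescaled CPM in CS and 16.2, 19.4 and 23.6 in SD. Its SD range enclosed the CS range, and the difference was -0.10 (SE 0.09, limma adjusted p = 0.346).

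The equilibrative transporters carry adenosine in either direction along its gradient. Slc29a2 had 2.27, 4.72 and 5.13 rescaled CPM in the lowest, median and highest WT CS library and 4.08, 5.88 and 7.72 in WT SD. All but 1 of the SD libraries lay above every CS library, and CS library 2 was far below the others. The rise was 0.45 (SE 0.17, limma adjusted p = 0.0408). It was not called without any of the WT CS libraries 2, 3 and 5 or SD libraries 1, 2, 3, 4, 8 and 9 (0.30 to 0.49, adjusted p of 0.0504 to 0.0848). Slc29a1 had 5.65, 12.7 and 17.2 rescaled CPM in CS and 13.9, 16.5 and 18.3 in SD, so the CS range was wide and reached into the SD range. With a difference of 0.44 (SE 0.19, limma adjusted p = 0.0584) it was not called, although it was without CS library 5 or 6 (0.50 to 0.55, adjusted p of 0.0217 to 0.0421).

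Adk had 155, 175 and 207 rescaled CPM in the lowest, median and highest WT CS library and 107, 116 and 146 in WT SD. The groups did not overlap, as was the case for 15.1% of all genes tested, 10.4% with SD lower. Adk fell by 0.53 on the log2 scale (SE 0.09, limma adjusted p = 0.0012), that is 30.6%, and was called in each of 13 fits that left out 1 library (-0.57 to -0.48). Summed astrocyte markers, which mark the main cell type that expresses Adk, were 3721 to 5187 rescaled CPM in CS and 3327 to 4412 in SD. Of the 9 single markers 4 were called higher and 0 lower, with none at 0 reads. Their part in the result was not tested, and in bulk tissue fewer cells of a type and less RNA per cell cannot be told apart.

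The sequences just upstream of the start sites of Nt5e and Adk are given here because these genes code for the opposing last steps of adenosine formation and removal, and to set the GC content at the starts beside that of the transcripts. They are 250 bases from RefSeq (GRCm38.p6, plus strand), and capitals mark the letters TGACG, the core of the cAMP response element. The windows are chr9:88327359-88327608 for Nt5e, chr14:21052324-21052573 for the start of the longer Adk gene model and chr14:21075902-21076151 for its inner start. The RefSeq start of Nt5e lies inside the gene as placed above, so its window is upstream of that start only.
Nt5e: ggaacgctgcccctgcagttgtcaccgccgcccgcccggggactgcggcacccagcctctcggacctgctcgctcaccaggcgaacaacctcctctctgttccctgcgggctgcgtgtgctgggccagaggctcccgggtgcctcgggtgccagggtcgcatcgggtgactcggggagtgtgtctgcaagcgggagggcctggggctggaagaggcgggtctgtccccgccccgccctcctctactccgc
Adk, outer start: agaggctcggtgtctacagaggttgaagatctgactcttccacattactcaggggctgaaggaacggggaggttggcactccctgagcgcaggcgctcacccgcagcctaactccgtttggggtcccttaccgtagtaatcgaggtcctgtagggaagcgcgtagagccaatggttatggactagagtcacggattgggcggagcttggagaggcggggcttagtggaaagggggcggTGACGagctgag
Adk, inner start: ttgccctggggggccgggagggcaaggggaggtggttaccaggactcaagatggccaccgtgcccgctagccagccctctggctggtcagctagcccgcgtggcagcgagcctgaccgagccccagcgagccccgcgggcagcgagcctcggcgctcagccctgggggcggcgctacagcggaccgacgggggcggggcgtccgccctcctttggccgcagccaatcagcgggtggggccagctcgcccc

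These windows were GC-rich, with 72.0% for Nt5e and 58.8% and 75.2% for Adk. The longest Adk transcript held only 37.5% GC, lower than all but 4.10% of annotated genes, while that of Nt5e held 48.0%. Windows were found for 8 of the 9 genes, 18 in all. The whole cAMP response element TGACGTCA, searched on both strands, was in 0 of the 18 windows and in 1.55% of 32851 windows of all genes. Its core TGACG, contained in TGACGTCA, was in 4 windows (1 each at Adk and Slc29a1 and 2 at Entpd1) and in 17.8% of all. The MEF2 motif, CTA and TAG with 4 bases of any kind between them, was in 1 window, at Slc29a1 (3.2% of all), as was the E-box CACGTG, which the clock proteins bind (6.02% of all).

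GC content went with the WT SD difference across the whole table. The median difference of genes rose from -0.42 in the lowest GC decile to 0.56 in the highest, and across genes log2 difference and GC content had a Spearman rho of 0.720, a description over genes that share the same libraries. Each member was set beside the GC decile whose median GC content was nearest, named its decile here. The fall of Adk (-0.53) lay between the quartiles of its GC decile, whose median was -0.42, and the rise of Slc29a2 (0.45) also lay between those of its decile (median 0.42). Nt5e lay above the quartiles of its decile, 0.39 against a median of -0.02, as did Adora2a (0.87 against 0.56) and Entpd2 (0.73 against 0.42). The GC content of Entpd2 (57.9%) lay between the medians of the highest decile and the next. Its difference lay within the quartiles of the highest decile (0.38 to 0.79). Adora1 lay below them, -0.06 against 0.30. With each library corrected for trends on GC content and transcript length, Nt5e was the only member called (0.44, SE 0.14, limma adjusted p = 0.0317). Adk then differed by -0.07 (SE 0.10, adjusted p = 0.613), Adora2a by 0.34 (adjusted p = 0.334), Entpd2 by 0.23 (adjusted p = 0.232) and Slc29a2 by -0.03 (adjusted p = 0.871).

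**Figure D2:**
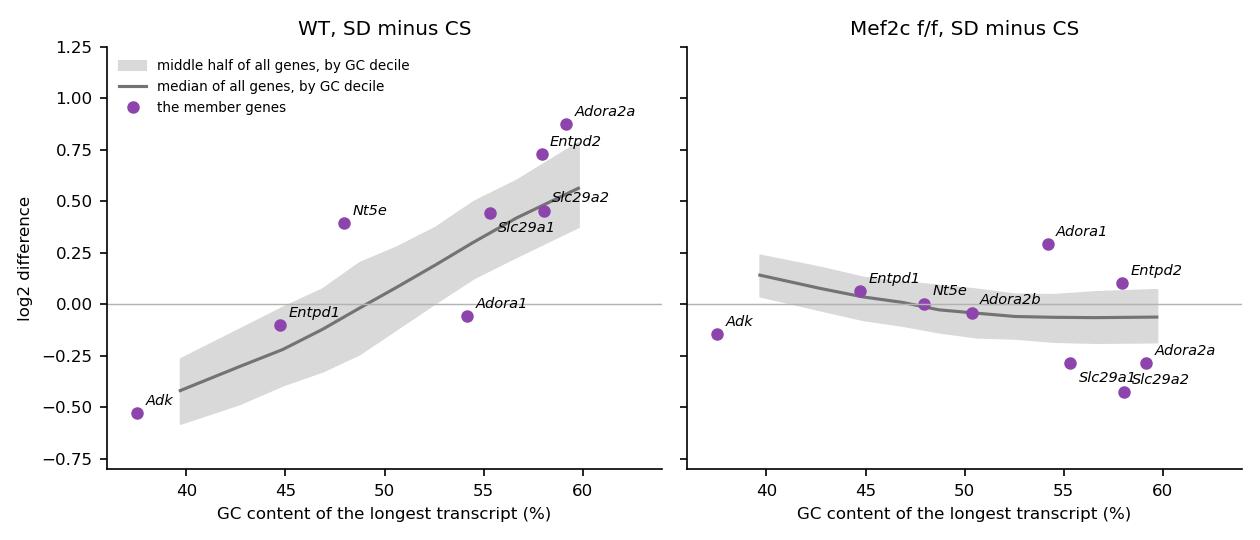
Difference from CS to SD (y axis, log2) against the GC content of the longest transcript (x axis, percent) in WT mice (left) and Mef2c f/f mice (right). Purple points are the member genes tested, the line is the median of all genes in each GC decile and the grey band spans their quartiles. In WT mice Nt5e (0.39) lies above the band and Adora1 (-0.06) below it, while Adk and Slc29a2 lie within their decile's quartiles.

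The GC-dependent shift was most negative in WT CS libraries 1 to 3 (-0.70, -1.79 and -0.70), and CS libraries 4 to 6 (-0.16 to -0.07) were close to SD library 3 (-0.01). The other SD libraries, which stayed in the fit below, had shifts of 0.17 to 0.69. CS libraries 4 to 6 thus did not match the SD group in this shift. With CS libraries 4 to 6 as the only controls, a choice made after seeing the data, Adk was the only member called (-0.55, SE 0.10, limma adjusted p = 0.0058). Its values in these 3 libraries were 171, 188 and 179 rescaled CPM, and SD library 3 had 135. Nt5e then differed by 0.42 (adjusted p = 0.115), Adora2a by 0.32 (adjusted p = 0.457), Entpd2 by 0.27 (adjusted p = 0.229) and Slc29a2 by 0.32 (adjusted p = 0.169). Thus no member was called both with the GC and length correction and with these controls alone.

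**Figure D3:**
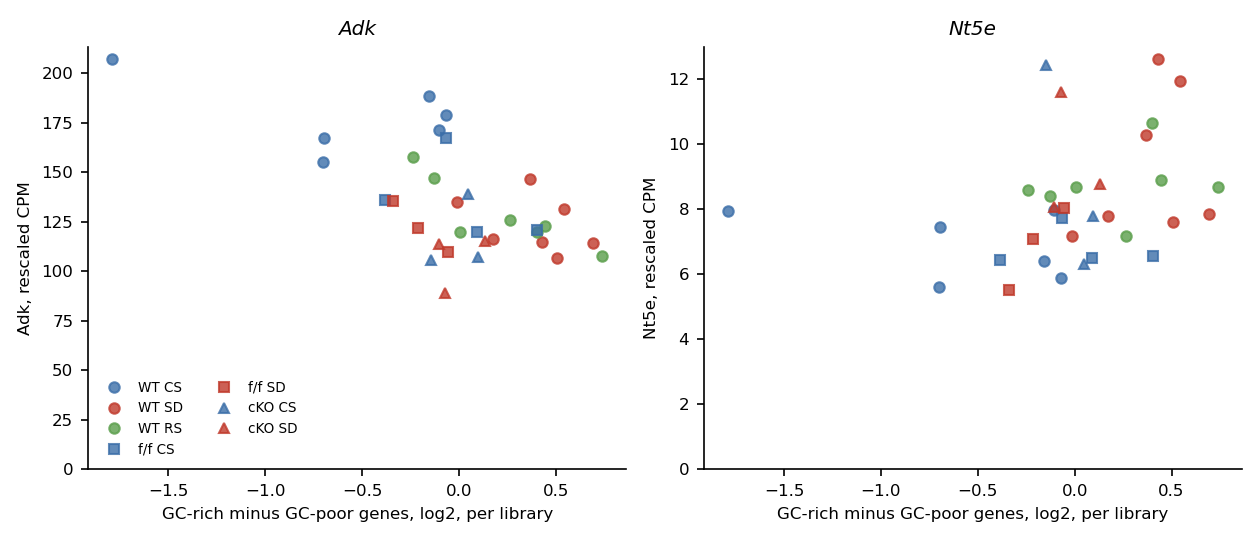
Rescaled CPM of Adk (left) and Nt5e (right) on the y axis against the GC-dependent shift of each of the 33 libraries (x axis, log2 level of genes in the highest GC decile minus that in the lowest). Points are libraries, coloured by sleep group and shaped by genotype. WT CS libraries 4 to 6, at shifts of -0.16 to -0.07, have 171 to 188 rescaled CPM of Adk, and WT CS library 2 lies apart at -1.79.

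Other cell types moved in WT SD too. Meningeal fibroblast markers summed to 11.1 to 64.6 rescaled CPM in CS and 70.7 to 108 in SD, with 5 of 7 called higher and 0 lower, and 1 defining marker at 0. Blood markers summed to 25.6 to 109 in CS and 89.1 to 263 in SD, with 4 of 4 called higher and none at 0. Inhibitory neuron markers summed to 498 to 716 in CS, 560 to 790 in SD and 607 to 895 in RS, with 2 of 8 called higher and 0 lower in SD and in RS, and none at 0. Nt5e and Entpd1 are also made by cells other than neurons, and the part of these markers in the results was not tested.

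After recovery sleep, Adora2a and Nt5e were called higher and Adk lower than in WT CS, 3 of 8 members tested, where 17.5% of all 12752 genes were called (9.28% higher and 8.22% lower). This comparison shares its CS libraries with the one above. Adora2a had 19.9, 29.9 and 48.3 rescaled CPM in the lowest, median and highest RS library, and 6 of 7 RS libraries lay above 28 while the highest CS library had 22.4. It rose by 1.09 (SE 0.29, limma adjusted p = 0.0359), a fold of 2.13. Nt5e had 7.18, 8.67 and 10.6 in RS, and 6 of 7 libraries lay above the CS range. It rose by 0.33 (SE 0.11, limma adjusted p = 0.0489).

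Adk had 108, 123 and 158 rescaled CPM in the lowest, median and highest RS library, and its highest RS library reached into the CS range. It fell by 0.47 on the log2 scale (SE 0.10, limma adjusted p = 0.0329), that is 27.8%. Entpd2, which entered this test only through RS, had 1.66, 1.92 and 2.61 in RS and differed by 0.63 (limma adjusted p = 0.0568). Slc29a1 differed by 0.42 (adjusted p = 0.106), Slc29a2 by 0.38 (adjusted p = 0.0805), Entpd1 by -0.13 (adjusted p = 0.222) and Adora1 by -0.08 (adjusted p = 0.561). Adora2b had 0.90, 1.10 and 1.81 rescaled CPM and was not tested.

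The RS calls rested on single libraries. Adk was not called without any of CS libraries 2 and 3 or RS libraries 3, 4, 5, 6 and 12 (-0.49 to -0.43, limma adjusted p of 0.0502 to 0.0749). Adora2a was not called without any of CS libraries 1, 2 and 3 or the same 5 RS libraries (0.89 to 1.20, adjusted p of 0.0516 to 0.0763). Nt5e was not called without any of CS libraries 1, 2, 3, 5 and 6 or RS libraries 2, 3, 4, 5, 6 and 12 (0.28 to 0.37, adjusted p of 0.0501 to 0.0921). Of all genes, 0 to 3740 were called with 1 library left out, with 0 without any of CS library 3 or RS libraries 3, 5, 6 and 12. With the GC and length correction Nt5e was called (0.38, limma adjusted p = 0.0415), and Adora2a (0.64, adjusted p = 0.0747) and Adk (-0.13, adjusted p = 0.354) were not.

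Between RS and SD, 0 of the 8 members tested were called by limma, and 0 had an unadjusted p of at most 0.05, where 0.0232% of 12921 genes were called and 5.29% had such a p. Adk differed by 0.06 with a 95% confidence interval from -0.14 to 0.25, and Nt5e by -0.07 with an interval from -0.34 to 0.20. The interval of Adora2a was wider, from -0.31 to 0.75. With edgeR and DESeq2 0 members were called as well.

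**Figure D4:**
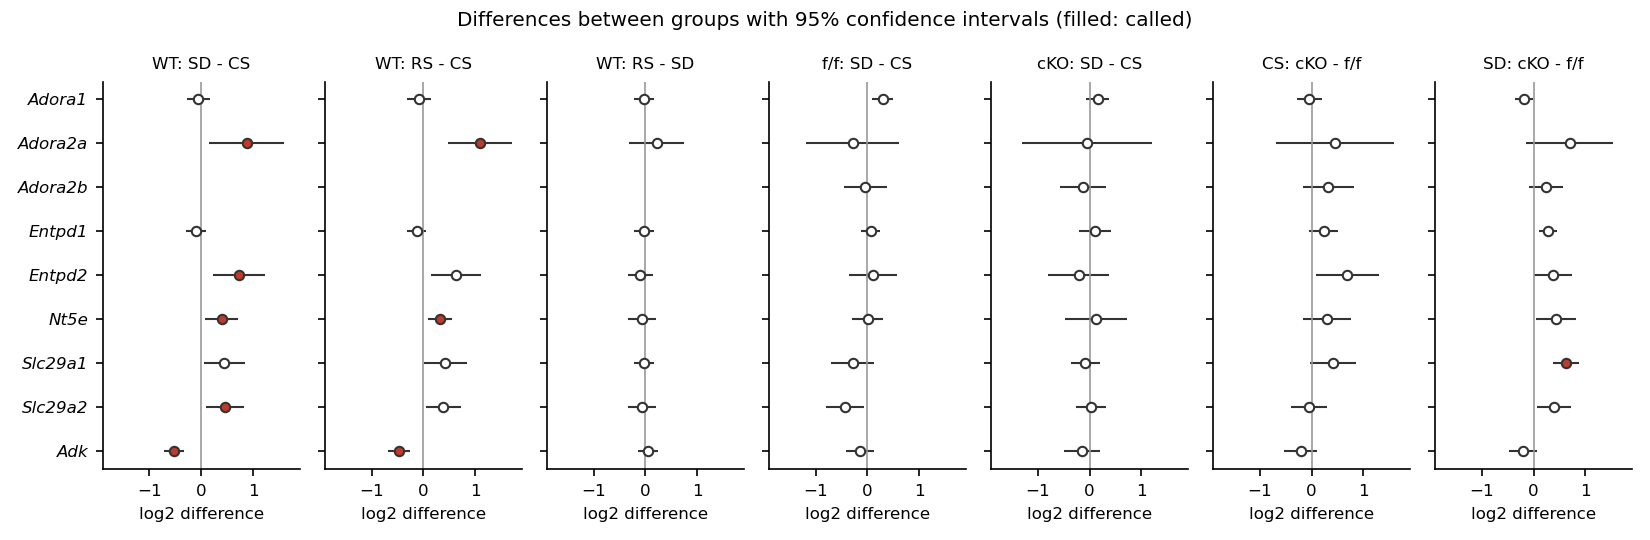
Log2 differences (x axis) of the member genes (y axis) in the comparisons named above each panel, with 95% confidence intervals from limma. Filled points were called and open points were not. WT SD against CS has 5 filled points, WT RS against CS has 3, and the f/f and cKO comparisons of SD with CS have none.

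The ratio of Adk to Nt5e, which compares the 2 genes within each library, was 26.3 ± 3.68 in WT CS (SD, n = 6), 13.8 ± 3.10 in WT SD (n = 7) and 15.0 ± 2.81 in WT RS (n = 7). No SD or RS library (9.08 to 18.9) reached the lowest CS library (21.5). It was 19.9 ± 1.68 in f/f CS (n = 4), 18.5 ± 5.52 in f/f SD (n = 3), 14.8 ± 6.85 in cKO CS (n = 3) and 11.6 ± 3.47 in cKO SD (n = 3). These ratios were not tested, since they restate the values of both genes, and the share of other gene pairs that separate in this way was not computed. The 2 transcripts differ in GC content (37.5% for Adk and 48.0% for Nt5e). In WT SD the median differences of their GC deciles were -0.42 and -0.02. A GC-dependent shift between libraries can thus move the ratio too, and its part was not tested.

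Adora2a is most abundant in neurons of the striatum, which lies under the frontal cortex, so its level was set beside the summed level of 17 other striatal neuron markers. The sum was 954 to 2055 rescaled CPM in WT CS, 1221 to 2271 in WT SD and 1412 to 2385 in WT RS, with none of the markers at 0, and these ranges overlapped. Of the 17 markers 6 were called higher in WT SD and 7 in WT RS, with 0 lower. Across the 20 WT libraries Adora2a went with the sum at a Pearson r of 0.689 (permutation p = 0.00061, adjusted over 4 relations 0.00122) and a Spearman rho of 0.645 (permutation p = 0.0026, adjusted 0.0052). The r was 0.569 without the 2 libraries farthest from the median, and 0.807 with values centred on their group means. The permutations shuffled libraries across groups, so their p-values take in differences between groups too. Across the 13 f/f and cKO libraries r was 0.922 (permutation p = 3e-05, adjusted 0.00012) and rho 0.929, with r at 0.916 without the 2 farthest libraries and 0.973 with values centred.

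**Figure D5:**
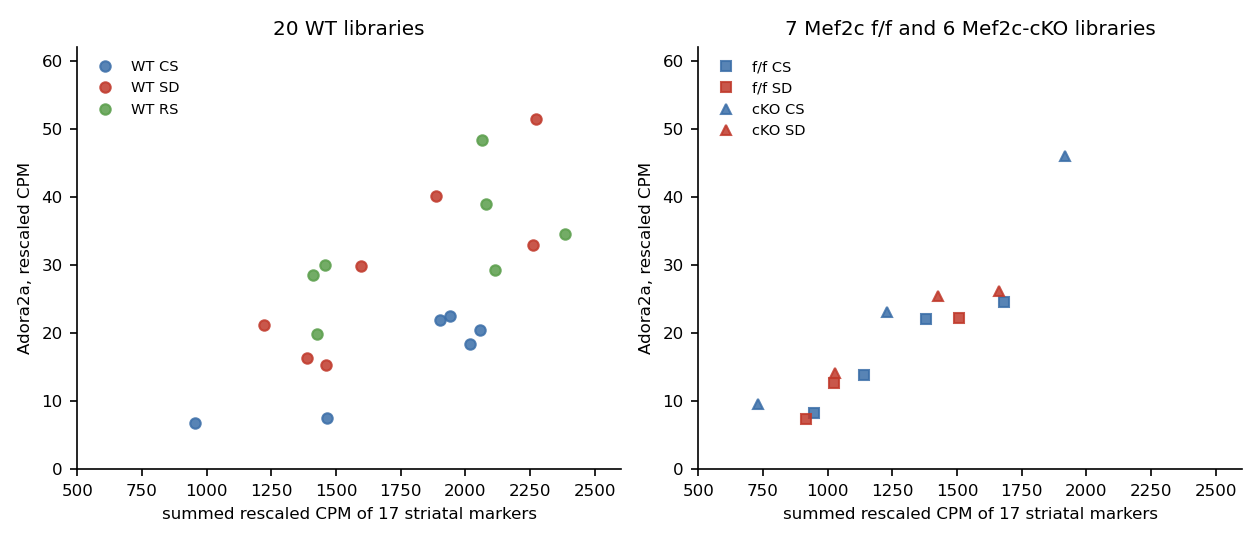
Rescaled CPM of Adora2a (y axis) against the summed rescaled CPM of 17 striatal neuron markers (x axis) in 20 WT libraries (left) and 13 Mef2c f/f and cKO libraries (right). Each point is a library, coloured by sleep group. In the right panel the points lie close to a line (r = 0.922), with cKO CS library 5 at 45.9 rescaled CPM of Adora2a and f/f SD library 3 at 7.42.

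With the striatal sum as a covariate, also chosen after seeing the data, the difference of Adora2a from CS was 0.85 in WT SD (SE 0.19, limma adjusted p = 0.0039) and 0.94 in WT RS (SE 0.19, adjusted p = 0.0285). Pde10a alone had a median of 933 rescaled CPM in WT CS, the highest of the 17 markers, so the sum weights it most. Its median was lower in WT SD (700) and WT RS (757), while the median log2 difference of the 17 markers was 0.32 and 0.58. The sum thus did not follow most of the markers. For this reason the covariate cannot decide what part striatal tissue had in the Adora2a values. Nt5e went with the same sum at an r of 0.495 in WT (permutation p = 0.0269, adjusted 0.0269) and 0.326 without the 2 farthest libraries, so that relation rested in part on them. Its rho was 0.474 (permutation p = 0.0362, adjusted 0.0362). In the f/f and cKO libraries r was 0.645 (permutation p = 0.0165, adjusted 0.0220) and 0.457 without the 2 farthest. With the covariate Nt5e differed from CS by 0.39 in WT SD (limma adjusted p = 0.0197) and by 0.31 in WT RS (adjusted p = 0.0629).

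In Mef2c f/f mice 0 of 9 members were called from CS to SD by limma, edgeR or DESeq2, and 2 had an unadjusted p of at most 0.05, where 0.0403% of 12410 genes were called and 17% had such a p. Adora1 had 119, 144, 123 and 143 rescaled CPM in the CS libraries and 156, 175 and 154 in the SD libraries. All SD values lay above all CS values, as did those of 8.53% of all genes. The difference was 0.29 (SE 0.09, limma adjusted p = 0.185). With the GC and length correction it was 0.37 and was called (limma adjusted p = 0.0421).

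Adk had 136, 120, 167 and 121 rescaled CPM in f/f CS and 122, 110 and 135 in f/f SD, so the groups overlapped and the spread over CS libraries came from library 3. The difference was -0.15 (SE 0.12, limma adjusted p = 0.562), with a 95% confidence interval from -0.42 to 0.13. Slc29a2 had 4.28, 6.15, 5.91 and 6.04 in CS and 4.60, 4.34 and 3.17 in SD, where 3 of the 4 CS libraries lay above every SD library. The difference was -0.43 (SE 0.16, limma adjusted p = 0.234).

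Slc29a1 had 13.4, 12.1, 7.79 and 14.3 rescaled CPM in f/f CS and 8.44, 9.88 and 10.1 in f/f SD, with a difference of -0.29 (limma adjusted p = 0.444). Nt5e had 6.44, 6.49, 7.74 and 6.55 in CS and 7.07, 8.03 and 5.52 in SD, a difference of 0.00 (SE 0.14, adjusted p = 0.993). Adora2a varied from 8.19 to 24.5 in CS and from 7.42 to 22.2 in SD, and Entpd1 only from 18.7 to 21.3 and from 20.4 to 21.2. Entpd2 lay between 0.84 and 1.64 in both groups together and Adora2b between 1.08 and 2.06, with overlapping groups.

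In Mef2c-cKO mice 0 of 9 members were called from CS to SD by limma, edgeR or DESeq2 and 0 had an unadjusted p of at most 0.05, where 0.0234% of 12810 genes were called and 3.05% had such a p. Adk had 106, 107 and 139 rescaled CPM in CS and 114, 89.1 and 115 in SD. Its difference was -0.14 (SE 0.15, limma adjusted p = 0.998), with a 95% confidence interval from -0.48 to 0.20. Adora2a had 45.9, 23.1 and 9.53 in CS and 14.04, 26.2 and 25.4 in SD, and its interval was the widest, from -1.30 to 1.21. Nt5e had 12.4, 7.79 and 6.30 in CS and 8.06, 11.6 and 8.77 in SD, and the libraries with the most Nt5e in each group also had the most Adora2a. In CS this was library 5, the library with the high choroid plexus markers, whose part in these values was not tested. All 9 members overlapped between the groups, while 9.05% of all genes did not.

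The change of the SD effect by the Cre transgene, cKO minus f/f, was called for 0 of 9 members by limma, 0 had an unadjusted p of at most 0.05, and 0 were called with edgeR or DESeq2 (0.00778% of 12860 genes were called, and 7.81% had such an unadjusted p). For Adk it was 0.00 with a 95% confidence interval from -0.44 to 0.44, for Adora1 -0.14 (-0.43 to 0.16) and for Slc29a2 0.45 (-0.02 to 0.92). Differences of the size of the WT SD effect on Adk (-0.53) lay outside the interval of that gene. Those of the size of its SD effect in f/f mice (-0.15), the controls of this comparison, lay inside it. The interval thus cannot decide whether the transgene changed that f/f effect. For Adora2a, differences of the size of the WT SD effect lay inside its interval, which went from -1.34 to 1.82.

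Between genotypes, Slc29a1 was the only member called, and in SD only. It had 13.4, 15.8 and 15.6 rescaled CPM in cKO SD, all above the 8.44, 9.88 and 10.1 of f/f SD. It was higher by 0.63 (SE 0.11, limma adjusted p = 0.0076), 1.54-fold, where 15.1% of 12774 genes were called and 9.1% were called higher. The call was kept with each of the 6 libraries left out and with the GC and length correction (0.49, adjusted p = 0.0131). In CS it had 14.05, 15.7 and 17.6 in cKO against 13.4, 12.1, 7.79 and 14.3 in f/f, with a difference of 0.42 (SE 0.20, limma adjusted p = 0.197). That the difference was past the threshold in SD and not in CS does not show a difference between sleep states, and the test of this gave 0.21 (SE 0.25, adjusted p = 0.826).

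None of the other members was called in SD. Groups did not overlap for 7 of 9 members, but this held for 40.3% of all genes. Entpd1 had 24.1, 27.0 and 25.2 rescaled CPM in cKO SD and 21.2, 21.01 and 20.4 in f/f SD, and was higher by 0.28 (SE 0.07, limma adjusted p = 0.0370), below the 0.3 required. Slc29a2 (5.33, 5.13 and 5.77 in cKO SD) was 0.39 above f/f (adjusted p = 0.0964), Nt5e 0.43 above (adjusted p = 0.111) and Entpd2 0.38 above (adjusted p = 0.138). Entpd2 was called without cKO SD library 6 (0.50, adjusted p = 0.0434). Adora1 was -0.18 against f/f (adjusted p = 0.122). Adora2a had 14.04, 26.2 and 25.4 in cKO SD and 12.7, 22.2 and 7.42 in f/f SD, with overlapping groups and a difference of 0.69 (SE 0.37, limma adjusted p = 0.223).

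In the same comparison microglia and macrophage markers summed to 228 to 266 rescaled CPM in cKO SD and 172 to 179 in f/f SD, with 7 of 8 called higher and none at 0. Their part in the values of Entpd1 and Slc29a1 was not tested. Markers of excitatory neurons were called lower for 5 of 10 genes, with sums of 1779 to 2004 in cKO SD and 2214 to 2358 in f/f SD. Those of inhibitory neurons summed to 735 to 844 in cKO SD and 548 to 625.1 in f/f SD, with 4 of 8 called higher and 2 lower and none at 0. Their part in the value of Nt5e was not tested.

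In CS, 0 of 9 members were called between cKO and f/f by limma, edgeR or DESeq2 and 1 had an unadjusted p of at most 0.05, where 7.67% of 12681 genes were called and 28% had such a p. Entpd2 had 1.72, 1.91 and 3.35 rescaled CPM in cKO CS and 0.84, 1.56, 0.90 and 1.64 in f/f CS, without overlap (as for 26.9% of all genes), with a difference of 0.69 (SE 0.27, limma adjusted p = 0.137). It entered this test only through cKO CS, where it was high. The highest value came from cKO library 8, the library with 673 rescaled CPM of microglia markers, in which Entpd1 was also highest at 28.5 against 21.2 and 21.6. Adk differed by -0.21 (SE 0.14, adjusted p = 0.359), and Adora2b by 0.32 (adjusted p = 0.361).

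The SD effect differed between f/f and WT mice for Slc29a2, the only member called among 9, where 15.1% of 13106 genes were called. The gene was higher in SD than in CS in WT mice (0.45) and lower in f/f mice (-0.43), and the difference of these effects was -0.88 (SE 0.28, limma adjusted p = 0.0414). With the GC and length correction it was -0.35 (adjusted p = 0.321), and with WT CS libraries 4 to 6 as the only WT controls -0.75 (adjusted p = 0.0761). The call was lost without any of the WT CS library 3, WT SD libraries 2, 4, 8 and 9, f/f CS libraries 2, 3 and 4 or the 3 f/f SD libraries (-0.97 to -0.74, adjusted p of 0.0515 to 0.135).

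For Adk the difference of effects was 0.38 (SE 0.16, limma adjusted p = 0.0882), for Slc29a1 -0.73 (SE 0.31, adjusted p = 0.0894), for Adora1 0.35 (SE 0.16, adjusted p = 0.119) and for Adora2a -1.16 (SE 0.60, adjusted p = 0.150). Adk was called without f/f CS library 3 (0.49, adjusted p = 0.0468) and Slc29a1 without WT CS library 6 (-0.83, adjusted p = 0.0457). The SD effects on Adk in f/f and WT mice thus did not differ past the threshold with all libraries. Over 12 alternative settings this difference of effects ran from -0.22 to 0.40, so its sign was not stable. Adk differed from the median of its GC decile by -0.11 in WT SD and by -0.29 in f/f SD. This comparison sets together libraries whose deposited CPM sum differently, as given above. The study also names remaining differences in genetic background, despite backcrossing, as a possible source of differences between f/f and WT mice. Genotype cannot be told apart from these here.

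A list of 62 other genes of adenosine and ATP handling was examined beside the 9, with the limma fit alone and without the alternatives given for the members. In WT SD 10 of 44 tested were called higher and 2 lower, against 24.6% and 20.5% of all genes, with a list median of 0.16. Of 18 tested genes of adenosine and AMP metabolism inside cells, 6 were higher and 0 lower. Among these, Ampd2, an AMP deaminase, rose by 0.77 (SE 0.20, limma adjusted p = 0.0090) and Nt5c1a, a cytosolic enzyme that cuts AMP to adenosine, by 0.65 (SE 0.11, adjusted p = 0.0012). Nt5c1a had 1.42, 1.67 and 2.20 rescaled CPM in the lowest, median and highest CS library and 2.53, 3.05 and 3.66 in SD. These groups did not overlap, as for 15.1% of all genes tested, 4.68% with SD higher. Slc29a4, a transporter of monoamines and adenosine, rose by 0.56 (adjusted p = 0.0145) and Panx2, of the pannexin channel family, by 0.51 (adjusted p = 0.0066). P2ry12, the ADP receptor of microglia, fell by 1.01 on the log2 scale (SE 0.24, adjusted p = 0.0056), and Gnai1, an inhibitory G protein subunit, fell by 0.35 (adjusted p = 0.0055). Adora3, the remaining adenosine receptor, had 0 reads in all 33 libraries, which alone does not show that it is absent from the tissue.

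In WT RS 8 of 44 genes of the list were called higher and 0 lower, against 9.28% and 8.22% of all genes, with a list median of 0.13. They included Entpd4 (0.74, limma adjusted p = 0.0425), Ampd2 (0.67, adjusted p = 0.0397), Nt5c1a (0.62, adjusted p = 0.0335) and Entpd6 (0.49, adjusted p = 0.0413). None of the tested list genes was called by limma between RS and SD, in f/f SD, in cKO SD or in the change of the SD effect from f/f to cKO, with 1, 4, 2 and 4 of them at an unadjusted p of at most 0.05.

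Between cKO and f/f mice, 2 list genes were called higher and 3 lower in CS and 9 higher and 2 lower in SD, of 46 tested, with list medians of 0.14 and 0.10. Of all genes 3.17% were called higher and 4.5% lower in CS, and 9.1% and 5.99% in SD. Entpd4, a nucleotidase of intracellular membranes, had 0 reads in all 6 cKO libraries, while f/f CS averaged 6.39 ± 3.70 rescaled CPM (SD, n = 4) and f/f SD 3.78 ± 0.56 (n = 3). Against a floor of 3 reads over the group it was at least 261-fold lower in cKO CS and at least 213-fold lower in cKO SD. Entpd4 entered both tests only through f/f, the group in which it was high, so its place among the genes called lower is a description. The annotation holds a near-identical copy, Entpd4b, so counts of Entpd4 are uncertain. Slc29a4 was higher by 0.95 in CS (SE 0.22, limma adjusted p = 0.0360) and by 1.28 in SD (SE 0.33, adjusted p = 0.0348). In CS Aprt was higher by 0.60 (adjusted p = 0.0387), Entpd7 fell by 0.42 (adjusted p = 0.0461) and Nt5c2 fell by 0.40 (adjusted p = 0.0314). In SD P2rx6 was higher by 0.80 (adjusted p = 0.0499), Nt5c1a by 0.73 (adjusted p = 0.0108) and P2ry1 by 0.67 (adjusted p = 0.0263), and Entpd7 fell by 0.37 (adjusted p = 0.0393).

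The SD effect of f/f minus that of WT was called for 6 of the 46 list genes tested, 2 higher and 4 lower, with a list median of -0.09, against 9.35% and 5.78% of all genes. It was 1.13 for P2ry12 (SE 0.35, limma adjusted p = 0.0411) and 0.53 for Adss (adjusted p = 0.0407). It was -0.73 for Ampd3 (adjusted p = 0.0188), -0.58 for P2ry6 (adjusted p = 0.0444), -0.53 for Adssl1 (adjusted p = 0.0409) and -0.52 for Adsl (adjusted p = 0.0456).

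The genes whose pattern over the 20 WT libraries was most like that of a member were found by Pearson r among 12155 genes, as a description of libraries that share depth and GC-dependent shifts. Adk was most like Tmem135 (0.98, and 0.95 with values centred on group means) and Astn2 (0.98 and 0.94). Adora2a was most like Pde1b (0.97 and 0.95), a phosphodiesterase of the striatum, and Rasgrp2 (0.96 and 0.96). Nt5e was most like Gad1 (0.86 and 0.79), the GABA-synthesizing enzyme of inhibitory neurons, and Bcl11b (0.84 and 0.80). Slc29a1 was most like Ndrg4 and Enthd2 (both 0.97), Slc29a2 like Rhbdd2 (0.96) and Sarm1 (0.94), Adora1 like Sept3 (0.90) and Tgm3 (0.88), and Entpd1 like Dock8 (0.84) and Gli3 (0.80). Adora2b and Entpd2 were too low for this comparison.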

How the data were processed

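Per the study's methods, the authors ran FASTQC, Trimmomatic, STAR (mm10) and HTSeq (unique reads) on stranded polyadenylated RNA libraries and deposited CPM made with edgeR. Every one of the 711645 deposited CPM was a whole multiple, to within 0.01, of the smallest value above 0 of its library, which was taken as 1 read. Here each library was rescaled by a median-of-ratios factor computed over all 33, and log2(CPM + 0.5) was fitted with limma 3.58.1 (R 4.3.3; lmFit, eBayes with a trend), the compared groups alone. A gene was tested where no replicate of at least 1 compared group had a CPM under 1. P-values were Benjamini-Hochberg adjusted over all genes tested, and interactions were called on adjusted p alone. Correlation p-values came from 100000 permutations, two-sided, that shuffled libraries without regard to group. None was computed for values centred on group means. Exon lengths and GC content came from GENCODE M21.

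Named genes are the 9 members, Mef2c, up to 4 rises and 4 falls of the list per comparison, cell type markers, and the 2 nearest genes of each member, with overlapping and copy genes named beside them. The members and lists were chosen with earlier results of these data known. Alternatives tried were edgeR 4.0.16 and DESeq2 1.42.0 on recovered reads, a GC and length correction, quantile normalization, deposited CPM without rescaling, pseudocounts of 0.1 and 1, no filter, all groups in the fit, a replicate block and each library left out. A striatal covariate and WT CS libraries 4 to 6 alone were added after seeing the data. Fits were tested on simulated data without GC-dependent shifts between libraries, so that test does not cover such shifts. No pair of replicates agreed within counting noise. Nothing states how replicates relate beyond their numbers, so p-values measure the spread between these libraries.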

Additional observations from a re-analysis of the deposited data

Results flagged for a closer look

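Of 36 sets of 1 member in 1 group of 4 or more libraries, 6 had a library far from the others, where chance gives about 1 in 20. The highest Adora1 value in WT SD (178 rescaled CPM, library 1) and the lowest in WT RS (104, library 4) were such libraries. So were the highest Entpd2 value in WT RS (2.61, library 5), the highest Nt5e value in f/f CS (7.74, library 3), the lowest Slc29a2 value in WT CS (2.27, library 2, which also had the most negative GC-dependent shift) and the lowest Slc29a2 value in f/f CS (4.28, library 1). The SD effect on Slc29a2 differed between f/f and WT mice by -0.88 (limma, interaction term).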

How the results depend on the processing

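The number of members called from CS to SD in WT mice, 5, was 1 with the GC and length correction (Nt5e), 1 with quantile normalization (Adk), 1 with WT CS libraries 4 to 6 alone (Adk), 3 without a filter (Adk, Entpd2 and Adora2b), 3 with edgeR and 0 with the replicate block, and 2 to 5 with 1 library left out (2 or 3 without any of CS libraries 1, 2 and 3 or SD libraries 2, 4, 8 and 9). For WT RS against CS, 3, it was 1 with the correction, 1 without a filter, 0 with CS libraries 4 to 6 alone, 5 with the block and 0 to 3 with 1 library left out. It rose from 0 to 1 with the correction in f/f SD (Adora1), and from 0 to 1 between cKO and f/f in CS with all groups in the fit (Entpd2) or the striatal covariate (Adora2a). It rose from 1 to 2 between cKO and f/f in SD with CPM as deposited (Entpd1 added), and was 1 to 2 there with 1 library left out. For the SD effect of f/f minus WT, 1, it was 2 with all groups, 0 with the correction, quantile normalization, no filter, CS libraries 4 to 6 alone or the block, and 0 to 2 with 1 library left out. With 1 library left out it stayed at 0 for f/f SD, cKO SD, WT RS against SD, cKO against f/f in CS and the change of the SD effect from f/f to cKO.

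The difference of Slc29a2 in WT SD reversed with the GC and length correction (-0.030). Of 1716 alternative values of single members, 1598 kept their direction and side of the threshold or changed sign without a call on either side (86 of them), 99 lost the call and 18 gained it. The cause of these changes was not tested.

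CPM as deposited moved the median of all genes from 0.04 to 0.30 in WT SD, from 0.02 to 0.20 in WT RS, from 0.03 to 0.13 between cKO and f/f in CS and from -0.05 to -0.30 in f/f minus WT. The genes called higher and lower went from 3183 and 2643 to 6106 and 801 in WT SD, from 1184 and 1048 to 2350 and 315 in WT RS, from 402 and 571 to 882 and 346 between genotypes in CS, from 1162 and 765 to 1694 and 492 in SD (704 and 727 with quantile normalization), and from 1225 and 758 to 507 and 2919 in f/f minus WT. On the deposited scale Adk in WT SD differed by -0.25 and was not called, which is -0.55 relative to that median. Of all genes, 5826 were called in WT SD, 2508 with the correction, 2304 with CS libraries 4 to 6 alone and 287 with the block. In WT RS 2232 were called, and 616, 0 and 4279 under the same alternatives, 385 without a filter, 1430 with the striatal covariate, 3420 with DESeq2 and 4018 with all groups. Between cKO and f/f 973 genes in CS became 2167 with all groups, 2095 with DESeq2 and 1500 with the striatal covariate, and 1927 in SD became 1019 with all groups. For f/f minus WT 1983 became 265 with the correction, 530 with CS libraries 4 to 6 alone, 1142 without a filter and 0 with the block. In f/f SD 5 became 120 with the correction, and DESeq2 called 190 higher and 276 lower. With 1 library left out the counts were 4509 to 6411 in WT SD, 0 to 3740 in WT RS, 0 to 590 in f/f SD (590 without CS library 1), 171 to 875 between genotypes in CS, 822 to 2447 in SD, and 23 to 3300 in f/f minus WT, so the shares of all genes called rest on single libraries.

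No source says that replicate numbers mark shared animals or days, and same-numbered libraries had correlations of deviations from -0.33 to 0.55 in WT CS and SD and from 0.07 to 0.67 in WT CS and RS, so the replicate block (0 members in WT SD, 5 in WT RS, 0 in f/f SD, cKO SD and both interactions) is given here only. No paired analysis was possible because cKO and f/f libraries shared no numbers, for the comparisons between these genotypes. Entpd2 with as few as 17 reads and Adora2b with 31 were limited by counting error.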
